A study of Rattus norvegicus with 18 samples.

Results

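The neocortex of male Sprague-Dawley rats deprived of paradoxical sleep was compared with that of rats left in the home cage. The deprived rats spent 78 h on the flowerpot platforms, where a rat is woken when its muscles relax at the onset of this sleep state, and the control rats stayed in their cages. The comparison used 6 of the 18 arrays of the series, chosen by their titles: 3 arrays of deprived neocortex and 3 of control neocortex. In each state, set 1 held 6 rats whose total RNA from the right neocortex was mixed into a pool on 2 separate occasions, each hybridised on 1 array, and set 2 was a pool from another 6 rats on 1 array. The arrays of set 1 were averaged on the log2 scale and count as 1 pool, so each group had n = 2 pools. All rats carried electroencephalographic and electromyographic electrodes, weighed 260 to 300 g and were killed at 16 h clock time. The control rats had no platform, so the loss of paradoxical sleep, any loss of other sleep and the stay on the platform cannot be told apart.

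Paradoxical sleep, also called rapid eye movement sleep, is the state of an active cortex in a body without muscle tone. In the cortex, synaptic activity induces immediate early genes within minutes through calcium and cyclic AMP signalling and the transcription factor CREB. The platform procedure is also a stressor that can raise corticosterone, and this steroid acts in the brain on a set of direct target genes through the glucocorticoid receptor.

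The letters that CREB is known to bind are TGACG and its palindrome TGACGTCA. They were looked for on both strands of the 250 bases before the RefSeq start of Nr4a1, Vgf and Egr2. The other activity-regulated genes described below were not examined singly, so the matches say nothing about how common the motif is among them. The following upstream stretches, from the GRCr8 build, are shown because their genes, picked with their values known, lay above control in both sets. Capitals mark the matches. Of 33469 rat promoter windows of the same length, 6097 (18.2%) held TGACG and 531 (1.59%) held TGACGTCA, which contains the shorter motif. Nr4a1, an orphan nuclear receptor induced by activity, lies on the plus strand (chr7:134259888-134260137). Vgf, the precursor of secreted neuropeptides, lies on the minus strand (chr12:25277021-25277270). Egr2, a zinc finger transcription factor, lies on the minus strand as well (chr20:21054442-21054691).
Nr4a1: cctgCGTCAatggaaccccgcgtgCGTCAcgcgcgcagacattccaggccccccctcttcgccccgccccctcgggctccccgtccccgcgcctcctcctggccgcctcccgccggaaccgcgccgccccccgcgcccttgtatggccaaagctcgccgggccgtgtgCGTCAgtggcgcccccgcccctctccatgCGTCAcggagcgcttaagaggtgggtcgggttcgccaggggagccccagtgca
Vgf: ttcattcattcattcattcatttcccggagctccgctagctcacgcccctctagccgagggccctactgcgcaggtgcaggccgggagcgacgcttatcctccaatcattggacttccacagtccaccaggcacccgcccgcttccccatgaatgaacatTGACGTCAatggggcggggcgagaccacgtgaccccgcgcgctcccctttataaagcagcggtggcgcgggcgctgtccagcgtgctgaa
Egr2: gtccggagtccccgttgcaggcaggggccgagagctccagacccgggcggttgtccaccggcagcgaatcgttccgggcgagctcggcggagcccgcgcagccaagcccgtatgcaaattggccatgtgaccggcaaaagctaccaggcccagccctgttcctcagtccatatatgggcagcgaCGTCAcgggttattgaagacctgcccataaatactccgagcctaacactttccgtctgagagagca
The Nr4a1 window held 4 matches to TGACG, Vgf held TGACGTCA once, at bases -90 to -83 from the start, and Egr2 held TGACG once. A match describes the letters only.

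Across the whole array the 2 groups lay close together. Of 18625 probe sets kept after the dimmest were left out, 2 were called by limma at an adjusted p under 0.05 with the set as a block, which is 0.0107% of those tested, and both were higher after deprivation. No probe set was called lower (0%). At an unadjusted p under 0.05 there were 673 higher (3.61%) and 397 lower (2.13%), 1070 in either direction (5.74%), against 931 by chance. The 2 sets often moved differently: 53.1% of probe sets had the same sign in both sets. The median absolute change was 0.101 log2 units in set 1 and 0.141 in set 2. The 2 arrays of set 1, which carried separately mixed RNA of the same rats, differed by a median of 0.170 log2 units in deprived neocortex and 0.180 in control neocortex. Both deprived pools lay above both control pools for 13.1% of probe sets and below them for 11.4%. Changes of over 0.5 log2 units in both sets were found above control for 75 probe sets (0.403%) and below it for 9 (0.0483%), and 47 changed by that much in opposite directions. The pools are 2 per group. With the set as a block, the p-values rest on the spread between pools that remains once the mean difference between sets is removed. They do not measure the whole spread between pools of 6 rats, nor that between single rats. The fit also treats the 12 pools of both structures as independent, although both structures came from the same rats.

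The tissue was checked against markers of neocortex and of its neighbours. All 23 neocortical neuron markers on the array were kept, with summed signals of 9910 and 9911 in the deprived pools of set 1 and set 2, against 10090 and 10316 in the control pools. Those sums were only a little lower in the hippocampal control pools, at 8767 and 9191. Hippocampal neuron markers told the structures apart more clearly. Their sums were 1468 and 1523 in deprived and 1458 and 1546 in control neocortex, and 2850 and 2875 in the hippocampal control pools. The filter on dim probe sets used the mean over the pools of both structures. Fibcd1, Lhx9 and Prss35 lay under its level in both neocortical groups and were kept through other pools, which can add to this separation. Striatal neuron markers had 15 of 18 kept, with 3870 and 3742 in deprived against 4202 and 3485 in control neocortex. In the hippocampal control pools the striatal sums were 1667 and 1897. Whether these signals came from striatal tissue or from cells of the neocortex itself was not tested. Choroid plexus markers had 9 of 16 kept, with Kl, Otx2, Kcnj13 and Cldn2 among those left out as dim, and their summed signals were 2640 and 1281 in deprived pools against 3028 and 977 in control pools. The signal of the 3′ probe set of beta-actin over that of its 5′ probe set, which grows as RNA degrades, was 2.64, 3.37 and 2.35 on the deprived arrays and 2.45, 2.92 and 2.61 on the control arrays.

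Gpd1, the cytosolic glycerol-3-phosphate dehydrogenase that links glycolysis to lipid synthesis and to the glycerol phosphate shuttle, rose after deprivation. Its signal was 366, 334 and 371 on the deprived arrays, the first 2 from set 1, against 163, 153 and 211 on the control arrays. Every deprived array lay above every control array. The mean log2 signal was 8.49 ± 0.06 in deprived and 7.51 ± 0.30 in control neocortex (SD, n = 2 pools each), a log2 change of 0.98 (SE 0.10, 1.97-fold, adjusted p = 0.00826 by limma). The change was 1.15 in set 1 and 0.81 in set 2. A second, dimmer probe set of the gene had signals of 70.8, 61.7 and 65.1 on deprived arrays against 27.6, 25.9 and 29.8 on control arrays, a log2 change of 1.22 that did not pass (adjusted p = 0.0687). The groups did not overlap there either.

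Arc, which encodes an activity-regulated cytoskeletal protein that takes part in the removal of AMPA receptors from synapses, also rose. Its signal was 146, 156 and 200 on the deprived arrays against 89.4, 72.5 and 103 on the control arrays. Every deprived array again lay above every control array. The mean log2 signal was 7.44 ± 0.29 in deprived and 6.51 ± 0.25 in control neocortex (SD, n = 2 pools each), a log2 change of 0.93 (SE 0.10, 1.91-fold, adjusted p = 0.0113 by limma). Both sets gave nearly the same change, 0.91 and 0.96, although set 2 was brighter in both groups. Gpd1 and Arc had 0 calls without the set as a block, where the adjusted p was 0.945 for Gpd1 and higher still for Arc, because the difference between the sets then enters the spread. Without any 1 of the deprived pool of set 1, the deprived pool of set 2 or the control pool of set 1, 0 probe sets were called, and without the control pool of set 2 only Gpd1 was. Both calls ended without an intensity trend in the fit (adjusted p = 0.337 for Gpd1 and 0.203 for Arc) and without the filter on dim probe sets (0.0510 for both), and that of Arc also with 1 technical array of set 1 in place of 2 (0.128 and 0.0696).

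**Figure D1:**
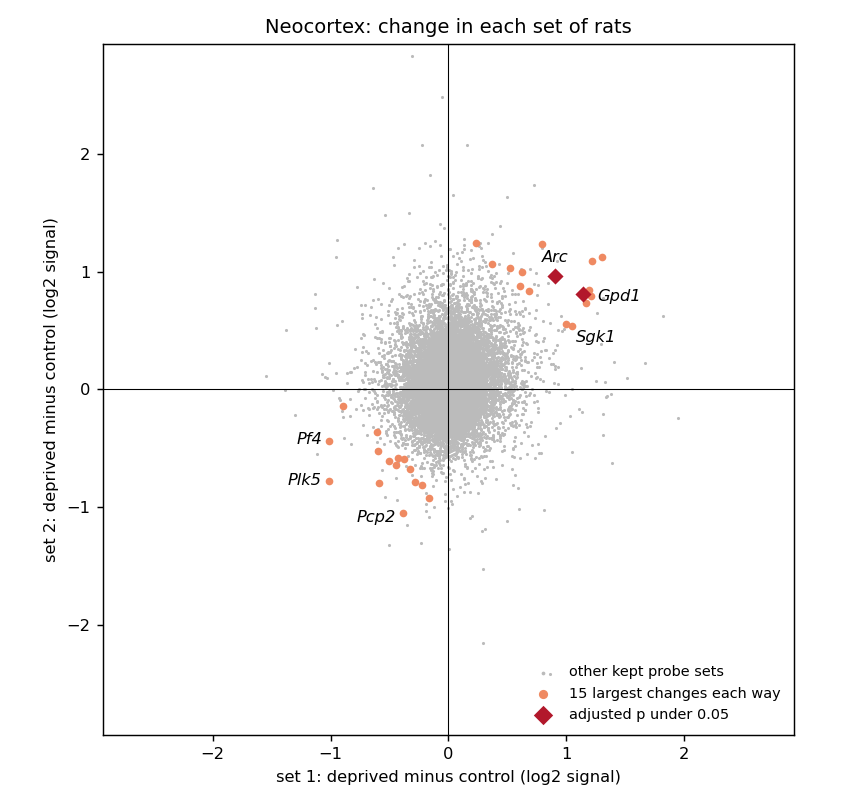
Change in log2 signal, deprived minus control neocortex, in set 1 (horizontal axis) and set 2 (vertical axis) for 18625 probe sets. Diamonds mark the 2 called probe sets, Arc and Gpd1, and orange points the 15 largest changes each way by the naming rule; most probe sets form a cloud around 0, with the same sign in both sets for 53.1% of them.

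Large changes were named by a rule: an unadjusted p under 0.05, the same sign in both sets, pools that do not overlap and a mean signal above the filter level of 19.7 in both groups. The 15 largest positive changes by this rule belonged to genes of diverse function, and beyond Gpd1 and Arc none passed the test. Sik1, described with the effector genes below, met the rest of the rule but lay under that signal in control neocortex. Sc5d, the sterol desaturase of a late step of cholesterol synthesis, had signals of 336, 269 and 271 on deprived arrays against 133, 126 and 128 on control arrays. That is a log2 change of 1.15 (adjusted p = 0.465), with no overlap between the groups and 1.22 and 1.09 in the 2 sets. A second probe set of the gene gave 0.78 (adjusted p = 0.277), and the third and brightest gave -0.01, so the probe sets disagree. Sgk1, the serum- and glucocorticoid-regulated kinase, had signals of 757, 716 and 701 in deprived against 379, 356 and 476 in control arrays, a log2 change of 0.78 (SE 0.11, adjusted p = 0.0687). All 3 deprived arrays stood above the control arrays, and the change was larger in set 1 (1.002) than in set 2 (0.56).

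Fos, a subunit of the AP-1 transcription factor, had signals of 124, 140 and 182 on deprived arrays and 53.6, 64.2 and 109 on control arrays, a log2 change of 0.95 (adjusted p = 0.665). The groups did not overlap. Gadd45b, an activity- and stress-inducible gene with a role in active DNA demethylation, had signals of 42.4, 60.7 and 69.2 in deprived against 18.5, 26.7 and 38.5 in control arrays. Its log2 change was 1.02 (adjusted p = 0.625), and the lowest deprived array stood just above the highest control array. Sult1a1, a phenol sulfotransferase, had signals of 202, 218 and 153 in deprived against 99.7, 103 and 105 in control arrays. The control arrays were close together and the set 2 deprived array was the lowest of the deprived ones, for a log2 change of 0.80 (adjusted p = 0.746).

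Among the other large positive changes was 1.01 for Lrrc61, a leucine-rich repeat protein, whose second and brighter probe set had 0.22. Ube3al1 had 1.001, and Prdm2, a zinc finger protein of the PR domain family, had 0.81 on 1 of 4 probe sets that ranged from -0.06 to 0.81. Egr2 had 0.78, Slc8a2, the plasma membrane sodium-calcium exchanger of neurons, 0.76, Etv1, an ETS family transcription factor, 0.74, and the actin-associated protein gene Palld 0.74. Dennd6a, a DENN domain protein of membrane traffic, had 0.72, and its second probe set had -0.22. Etv1 had 5 probe sets between -0.25 and 0.74, of which 2 lay above control. The pools of these genes do not overlap because they were chosen so, and for Palld and Dennd6a the single arrays did overlap.

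The 15 largest negative changes by the same rule were smaller, from -0.90 to -0.48, and came from dim probe sets, with no control signal above 113. Their pools do not overlap because they were chosen so. Single arrays were free of overlap for 10 of these 15 and for 13 of the 15 largest positive changes. Both groups of genes were chosen for pools that do not overlap, which makes such separation likely. The share over all probe sets is not given for single arrays, so the counts are not a result. A probe set of Igfbp5 with -0.83 met the rest of the rule but lay under the filter level in deprived neocortex. Plk5, of the polo-like kinase family, had signals of 33.2, 15.5 and 31.5 on deprived arrays against 48.8, 43.0 and 54.0 on control arrays. No deprived array reached the control arrays, and the log2 change was -0.90 (SE 0.24, adjusted p = 0.763). Pf4, the chemokine platelet factor 4, had signals of 40.8, 56.0 and 44.8 in deprived against 113, 82.4 and 60.6 in control arrays, a log2 change of -0.72 (adjusted p = 0.804). The groups did not overlap, and the control arrays were widely spread. Pcp2, known as a Purkinje cell protein, and Cbln1, a secreted organiser of synapses, had -0.71 and -0.69. A second probe set of Cbln1 had -0.41, with 0.08 in set 1 and -0.90 in set 2. Cbln1 also marks thalamic neurons, and the thalamic marker list had summed signals of 1653 and 1978 in deprived against 1627 and 2024 in control pools. What part adjoining tissue has in the Cbln1 values was not tested.

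Among the remaining negative changes, Mmp2, a gelatinase that degrades matrix, had a log2 change of -0.56 and Sema3g, a semaphorin of endothelial cells, -0.49. Clec11a, a secreted growth factor, had -0.48, and its brighter probe set 0.09. Anxa3, an annexin, had -0.52, with -0.12 on its brightest probe set and 0.05 on the dimmest. Col3a1, a fibrillar collagen, had -0.53 (-0.19 in set 1 and -0.88 in set 2), Nid2, a basement membrane nidogen, -0.47, and Col5a1 -0.44, the last 2 named after their values were seen. Of the whole list of meningeal and matrix markers, 16 of 29 lay above and 13 below control, with a median of 0.01. At an unadjusted p under 0.05, 1 member was higher, Mgp (0.26), and 1 was lower, Col3a1. Taken by set, the median was -0.10 in set 1 and -0.0015 in set 2, with 7 markers above control in both sets and 10 below in both. The summed signals of that list were 6370 and 5613 in deprived against 6539 and 5684 in control pools. Of 28 endothelial and pericyte markers 17 lay above and 11 below control (median 0.02), with summed signals of 4663 and 4668 in deprived against 4712 and 4759 in control pools. Igfbp5, a binding protein of insulin-like growth factors, had signals of 143, 121 and 116 in deprived against 176, 158 and 171 in control arrays. The groups did not overlap and the log2 change was -0.45 (adjusted p = 0.611), with all 3 of its probe sets below control, from -0.83 to -0.33. In tissue RNA, fewer cells of a type and less RNA per cell cannot be told apart. The other large negative changes were those of Dpp9, a dipeptidyl peptidase (-0.56), Pdcd11, a ribosome biogenesis factor (-0.54, against 0.13 on its brighter probe set), Gng8, a G protein gamma subunit (-0.54), Zfp574, a zinc finger protein (-0.53), the nucleoporin gene Nup107 (-0.52), the orphan receptor gene Gpr27 (-0.51) and Tmem231 of the ciliary transition zone (-0.50).

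**Figure D2:**
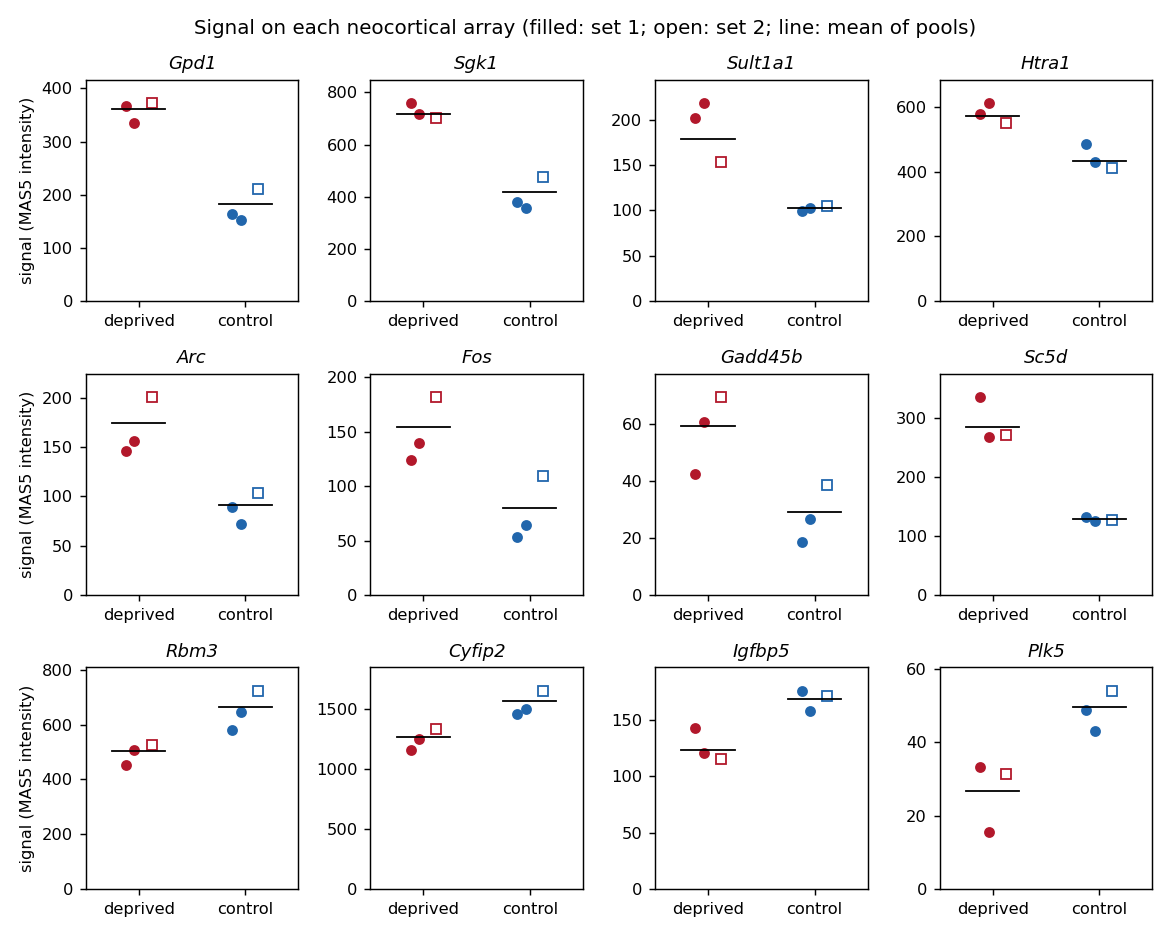
Signal (linear MAS5 intensity, axes from 0) on each neocortical array for 12 genes, with deprived arrays left of control arrays; filled circles are the 2 arrays of set 1, open squares the array of set 2, and lines the geometric mean of the 2 pools. The deprived arrays lie above the control arrays in the first 8 panels and below them in the last 4. The genes were picked with their values known, so this separation is not a result, and only Gpd1 and Arc passed the test. Over all probe sets both deprived pools lay above both control pools for 13.1% and below them for 11.4%.

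Further genes with small p-values were named after their values were seen. Htra1, a secreted serine protease, had signals of 578, 610 and 550 on deprived arrays against 486, 430 and 412 on control arrays. The groups did not overlap and the sets gave 0.38 and 0.42, for a log2 change of 0.40 (adjusted p = 0.293). Cyfip2, a subunit of the WAVE complex that controls actin at synapses, had signals of 1158, 1249 and 1338 in deprived against 1460, 1504 and 1650 in control arrays. All 3 deprived arrays were the lower ones, and both sets gave -0.30 (adjusted p = 0.487). Inka2, an inhibitor of a p21-activated kinase, had 544, 768 and 458 in deprived against 452, 506 and 286 in control arrays, where the groups overlapped and set 2 was dimmer in both, and a log2 change of 0.56 (adjusted p = 0.144). Bcat1, the cytosolic branched-chain aminotransferase, had 0.41 on its most significant probe set and 0.05 on its other one. Snx4, a sorting nexin of endosomal recycling, had -0.45, Pak3, a p21-activated kinase of dendritic spines, -0.42 on 1 of its 3 probe sets, the light neurofilament gene Nefl -0.25, and Ypel5 -0.28.

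Gene lists were described on 1 probe set per gene, beside all 10294 named genes, of which 4941 lay above and 5353 below control with a median of -0.01. At an unadjusted p under 0.05, 305 of those genes were above control and 260 below. Of 41 lists, 11 had a median above 0 in both sets, 12 below 0 in both sets and 18 medians of opposite sign. The lists were chosen with earlier results of these data known, so their counts and medians are not independent of the data.

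Immediate early transcription factors were measured for 24 genes, with 19 above and 5 below control, a median of 0.14 (0.17 in set 1 and 0.16 in set 2) and 6 genes at an unadjusted p under 0.05, all higher. Nr4a1 had signals of 179, 161 and 205 on deprived arrays against 120, 132 and 122 on control arrays, without overlap, and a log2 change of 0.59 (adjusted p = 0.611). Egr2 had 53.3, 56.3 and 55.8 in deprived against 34.0, 42.8 and 27.3 in control arrays, also without overlap. Egr1, a zinc finger factor with a high level in cortex, had 950, 1061 and 1074 in deprived against 727, 772 and 907 in control arrays, a log2 change of 0.33. The early gene Ier2 had 0.58, while Junb, Jund and Jun, partners of Fos in AP-1, had only 0.13, 0.14 and 0.17, and Srf had -0.03.

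Of 33 activity-regulated effector genes, 27 lay above and 6 below control, with a median of 0.11 and 9 at an unadjusted p under 0.05, all higher, with Arc the 1 that passed. Sik1, a salt-inducible kinase induced by cyclic AMP, had a log2 change of 1.07, with 0.50 in set 1 and 1.64 in set 2, where the control signal was only 9.2. Vgf had 518, 511 and 579 in deprived against 392, 403 and 379 in control arrays, without overlap, a log2 change of 0.49 (adjusted p = 0.731). Dusp6, a phosphatase of the MAP kinase ERK, had 0.32, with all 3 probe sets above control, and Dusp1, a related phosphatase, 0.55. Homer1, a postsynaptic scaffold, showed a split by probe set, from -0.01 to 0.68 over 5 probe sets, with 0.03 on the brightest. Other effectors lay near 0, among them Rgs4 (-0.09), Plk2 (-0.08) and Nptx1 (-0.07).

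Glucocorticoid-responsive genes had a median of 0.19 (0.30 in set 1 and 0.14 in set 2), with 27 of 30 above and 3 below control, 13 at an unadjusted p under 0.05, all higher, and Gpd1 the 1 that passed. Fkbp5, a cochaperone of the glucocorticoid receptor, had signals of 148, 108 and 88.9 in deprived against 95.5, 101 and 70.1 in control arrays, which overlap, and a log2 change of 0.35. Cdkn1a, an inhibitor of cyclin-dependent kinases, had 0.58, Angptl4, an inhibitor of lipoprotein lipase, 0.35, and Tsc22d3, the leucine zipper protein GILZ, 0.26. Glul, the glutamine synthetase of astrocytes, had 0.18, with 3 of 3 probe sets between 0.18 and 0.30. Pdk4, which inhibits pyruvate dehydrogenase, had 0.56 and Cdkn1c -0.23. The lists share members, with Sgk1 and Dusp1 among those in both this one and the effector list.

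The receptors for the steroid themselves lay near or below control, at -0.04 for Nr3c1, the glucocorticoid receptor, and -0.18 for Nr3c2, the mineralocorticoid receptor. Of the 9 genes of that list 6 lay above and 3 below control (median 0.17). Crh, the corticotropin-releasing hormone that cortical interneurons also make, had signals of 58.6, 77.1 and 80.5 in deprived against 41.5, 42.0 and 56.9 in control arrays. The arrays did not overlap, and the log2 change was 0.59 (adjusted p = 0.824). Hsd11b1, which regenerates active glucocorticoid inside cells, had 363, 413 and 374 in deprived against 336, 342 and 309 in control arrays, again without overlap, a log2 change of 0.24.

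The wider list of peptide genes, which includes Crh, was mixed. Of 30 neuropeptides and trophic factors, 20 lay above and 10 below control (median 0.07). At an unadjusted p under 0.05, 4 were higher, Crh among them, and 1 was lower. Nts, the neurotensin precursor, had signals of 38.9, 42.5 and 37.9 in deprived against 26.2, 31.3 and 30.1 in control arrays, without overlap, a log2 change of 0.42. Tac1, the precursor of substance P, had 0.35 and Chga, a granin of secretory vesicles, -0.22. Sst, Npy and Cck, the main peptide genes of cortical interneurons, had 0.01, 0.05 and -0.03.

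**Figure D3:**
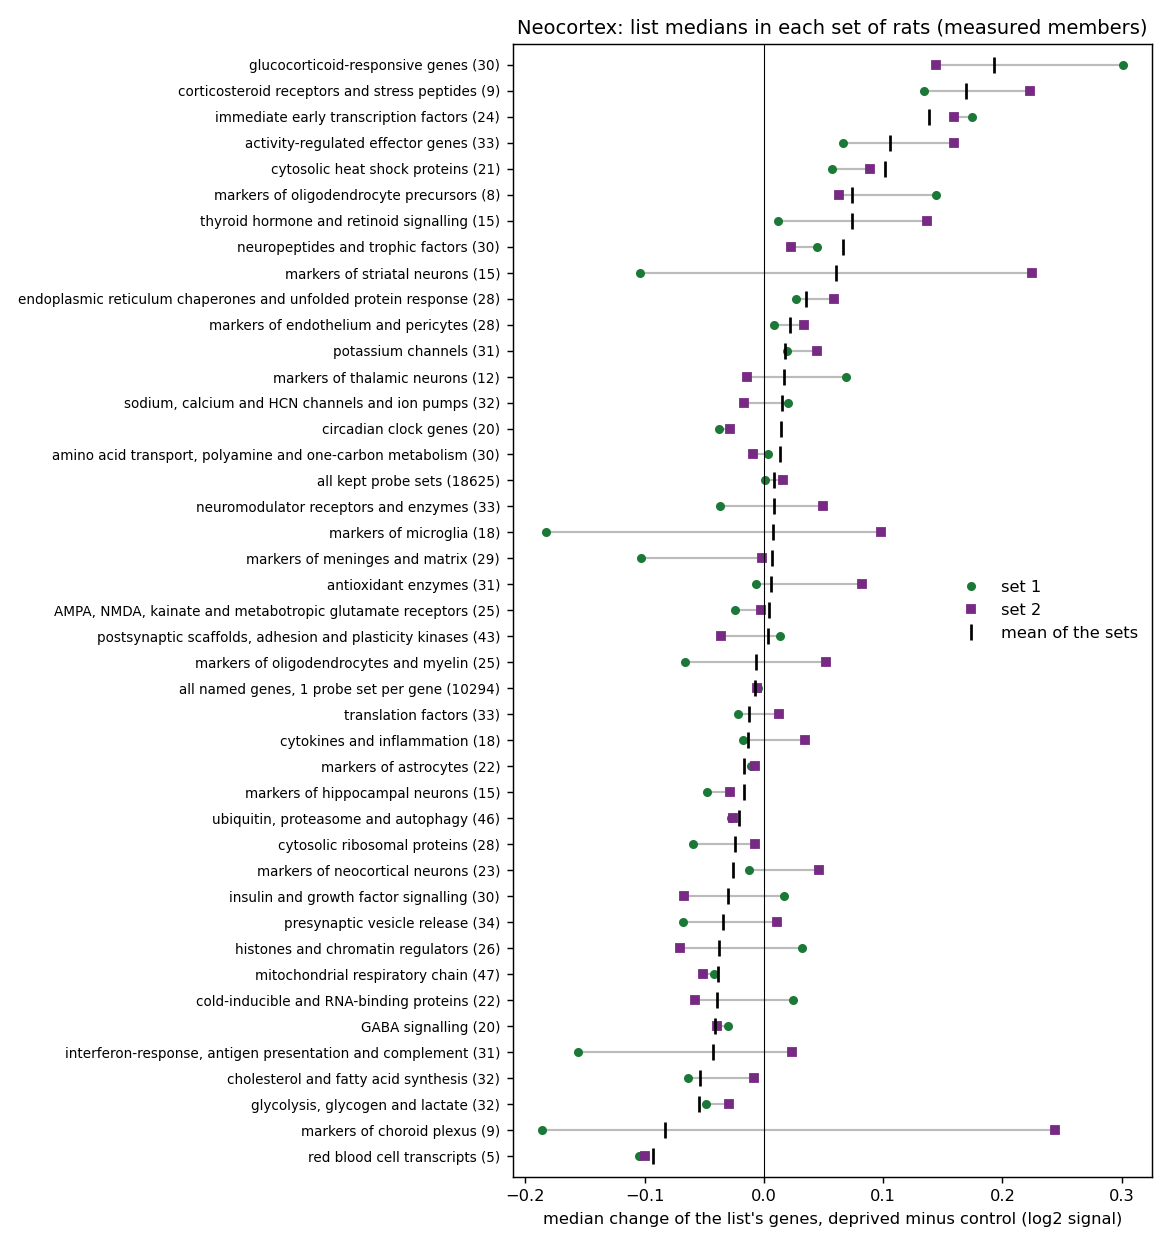
Median change in log2 signal, deprived minus control neocortex, of 41 gene lists and of all probe sets and named genes, in set 1 (circles), in set 2 (squares) and in the mean of the sets (ticks), with the number measured in brackets. The glucocorticoid-responsive, corticosteroid receptor and stress peptide, immediate early and effector lists have medians of 0.11 to 0.19 in the mean of the sets. These lists lie above 0 in both sets, while the markers of choroid plexus, striatal neurons and microglia lie on opposite sides of 0 in the 2 sets. The lists were chosen with earlier results of these data known.

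Genes of protein folding were described by compartment. Of 21 cytosolic heat shock genes 14 lay above and 7 below control (median 0.10), with 3 higher at an unadjusted p under 0.05. These were Dnajb5, a cochaperone (log2 change 0.46), Cryab, the small heat shock protein alpha-B crystallin (0.36) and Stip1, which joins the large chaperones (0.19). Hsp90ab1 had -0.11, and the dimmer probe sets of Dnajb5 had 0.19 and -0.11. Of 28 endoplasmic reticulum chaperone and unfolded protein response genes 21 lay above and 7 below control, with a median of only 0.04 and 1 higher at an unadjusted p under 0.05, Xbp1 (0.18). Hspa5, the main chaperone of that compartment, had signals of 921, 970 and 1040 in deprived against 753, 784 and 982 in control arrays. The groups overlapped, with 0.30 in set 1 and 0.08 in set 2.

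Rbm3, an RNA-binding protein whose transcript increases when temperature falls, had signals of 454, 508 and 525 on deprived arrays against 580, 648 and 723 on control arrays. All deprived arrays lay below all control arrays, with -0.35 and -0.46 in the 2 sets and a log2 change of -0.41 (adjusted p = 0.598). Cirbp, the other classic cold-inducible transcript, had 117, 139 and 123 in deprived against 142, 136 and 127 in control arrays, which overlap, a log2 change of -0.08. The list of cold-inducible and other RNA-binding proteins had 8 of 22 above and 14 below control (median -0.04), with the splicing factor Srsf2 (-0.21) the other member at an unadjusted p under 0.05.

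Clock genes had 11 of 20 above and 9 below control, with a median of 0.01, 2 lower at an unadjusted p under 0.05 and none higher. Taken by set, the median was -0.04 in set 1 and -0.03 in set 2, with 2 genes above control in both sets and 5 below in both. Bhlhe41, a repressor of clock transcription also called Dec2, had signals of 425, 460 and 418 in deprived against 511, 579 and 501 in control arrays, without overlap, a log2 change of -0.28. Nr1d2, the nuclear receptor REV-ERB beta, had 513, 532 and 519 in deprived against 583, 597 and 641 in control arrays, also without overlap, a log2 change of -0.24 with all 3 probe sets below control. Per3 had -0.26 and Dbp -0.20, and the core genes Per1, Per2, Bmal1 and Clock had 0.03, 0.18, 0.03 and -0.05.

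Metabolic lists leaned slightly below control. Of 32 glycolysis, glycogen and lactate genes 9 lay above and 23 below (median -0.05), although the list holds Gpd1. Pfkm, the muscle-type phosphofructokinase, had signals of 887, 829 and 875 in deprived against 980, 939 and 948 in control arrays, without overlap but by a log2 change of only -0.14, and Gpd2, the mitochondrial partner of Gpd1 in the shuttle, had -0.28. Of 47 respiratory chain genes 14 lay above and 33 below control (median -0.04), with Ndufs4, a complex I subunit, the 1 member at an unadjusted p under 0.05 (0.50, higher). Of 32 cholesterol and fatty acid synthesis genes 10 lay above and 22 below (median -0.05). Me1, the cytosolic malic enzyme (-0.30), was the 1 member at an unadjusted p under 0.05, and its other probe set had 0.09. The sterol enzymes Tm7sf2 (-0.25) and Sqle (-0.18) and the desaturase Scd (-0.35) stood on the opposite side of 0 from the 2 dimmer probe sets of Sc5d.

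Genes of synapses and excitability had medians near 0. Of 34 presynaptic genes 11 lay above and 23 below control (median -0.03). At an unadjusted p under 0.05, Syn1 (-0.18), Syn2 (-0.21) and Vamp1 (-0.16), proteins of the vesicle and its fusion, were lower. Rims1 of the active zone (0.29) was higher at that threshold. Other probe sets had -0.01 for Syn1, 0.04 and -0.15 for Syn2, and -0.21 and, on the dimmest, 0.24 for Vamp1. Sv2b, a vesicle protein, had a mean change of -0.93 that came from set 2 alone, with 0.29 in set 1 and -2.15 in set 2. Of 20 GABA genes 9 lay above and 11 below control. Gabrb2, a receptor subunit, had -0.19 (0.12 on its dimmer probe set) and Pvalb, the parvalbumin of fast-spiking interneurons, had 0.16. Of 25 glutamate receptor genes 13 lay above and 12 below, with Cacng2, the AMPA receptor auxiliary protein stargazin, at 0.33. Of 31 potassium channel genes 18 lay above and 13 below, with Kcnip3, a channel-interacting calcium sensor, at 0.42 and Kcna4 at -0.27. The sodium channel Scn2a (-0.20) and the ryanodine receptor Ryr2 (-0.20) were among 3 of 32 other channel and pump genes lower at an unadjusted p under 0.05. Adrb1, the beta-1 adrenoceptor, had 0.53 and Npy1r, a receptor for neuropeptide Y, -0.38.

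Lists of protein synthesis and turnover stayed close to 0, at -0.02 for 28 ribosomal protein genes, -0.01 for 33 translation factors and -0.02 for 46 ubiquitin, proteasome and autophagy genes. None of the ribosomal, ubiquitin or 26 chromatin genes had an unadjusted p under 0.05. Inflammation had 7 of 18 genes above and 11 below control, with none at an unadjusted p under 0.05, and Ptgs2, a prostaglandin synthase that neurons also induce, had 0.24. Interferon and complement genes had a median of -0.16 in set 1 and 0.02 in set 2. Glial lists had medians of -0.02 for astrocytes, -0.01 for oligodendrocytes and myelin and 0.07 for the 8 measured precursor markers, and microglial markers had -0.18 in set 1 and 0.10 in set 2. Ttr, the transthyretin of choroid plexus, had -0.23 in set 1 and 2.08 in set 2. It is a member of the choroid plexus list, so the sums given above include its own signal. Its part in other changes of set 2 was not tested.

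The same rats gave the hippocampal formation, and the neocortical change was set against the hippocampal change. Of the 15 genes with the largest positive neocortical changes, 9 also lay above control in both hippocampal sets, 2 lay below in both and 4 had opposite signs, where over all probe sets 26.1% lay above in both, 24.5% below in both and 49% had opposite signs. Of the 15 with the largest negative changes, 4 lay below control in both hippocampal sets, 3 above in both and 8 had opposite signs. Arc had log2 changes of 0.91 and 0.96 in the neocortex against -0.18 and 0.06 in the hippocampal formation, and Gpd1 1.15 and 0.81 against 0.78 and 0.71. The difference between the structures was 0.99 for Arc (SE 0.12) and 0.23 for Gpd1 (SE 0.12). Tested within the pools of rats, the difference passed for no probe set (0 of 18625, 0%, smallest adjusted p = 0.979 by limma). An unadjusted p under 0.05 was found for 918, Arc among them, against 931 by chance. Arc was named for its neocortical change, so its difference between the structures is not independent of that choice. Slc8a2 had 0.68 and 0.84 in the neocortex against -0.60 and -0.16 in the hippocampal formation, Gpr27 -0.43 and -0.59 against 0.29 and 0.32, and Rbm3 -0.35 and -0.46 against -0.39 and -0.69.

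Rats allowed 6 h of recovery after deprivation, which the sample labels give as 72 h and the treatment text can be read to give as 78 h, were measured against the same control pools, so their values are not independent of those above. For Arc the change against control was 0.91 and 0.96 in deprived neocortex and -0.04 and 0.09 in recovery neocortex. For Gpd1 it was 1.15 and 0.81 in deprived and 0.57 and 0.24 in recovery neocortex, and for Sgk1 1.002 and 0.56 in deprived and 0.23 and -0.0039 in recovery neocortex. Sc5d had 1.22 and 1.09 in deprived and 0.53 and 1.09 in recovery neocortex, and Plk5 -1.01 and -0.78 in deprived and -0.59 and -1.04 in recovery neocortex.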

How the data were processed

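Probe set intensities on a linear scale were deposited for each array, made with MAS5 per the submitters' processing notes, whose version and scaling target are not given in the sources used here. The 57 control probe sets were left out, signals were raised to a floor of 1 and log2-transformed, the arrays of set 1 were averaged, and the lowest 40% by mean (a signal under 19.7) were left out. The platform annotation gave 1 symbol to 20832 of 31099 probe sets, several to 436 and none to 9831, and only those with 1 were named. limma 3.58.1 (R 4.3.3) with an intensity trend, tested on simulated data, was fitted to the 12 pools of both structures, with the set as a block within each structure (4 residual and 7.58 prior degrees of freedom) and Benjamini-Hochberg adjustment over 18625 probe sets. Same-numbered neocortical pools deviated together (r = 0.539 to 0.587), a pairing that rests on the data and the numbers, not on a stated litter or day. Structures were compared within the 6 pools of rats (2 residual degrees of freedom). The genes and lists were chosen with earlier results of these data known. Named are the called probe sets, the 15 largest changes each way, 1 probe set per gene, at an unadjusted p under 0.05 with non-overlapping pools, the same sign in both sets and a mean above the filter level in both groups, without provisional symbols, and up to 4 members of each list. List members given with a log2 change alone, and those said to be so, were chosen after their values were seen. Arrays of pools give no depth, and their number limits the precision.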

Additional observations from a re-analysis of the deposited data

How the results depend on the processing

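The 2 calls depended on the fit. Without the replicate block 0 probe sets were called, with the 6 neocortical pools alone 8 (all higher), with only the 4 pools compared 121 (100 higher, 21 lower, on 1 residual degree of freedom), and with each technical array of set 1 on its own 1, Gpd1. All 18 arrays with the pool as a random block gave 402 (248 higher, 154 lower), with an estimated correlation within pools of -0.55. A floor of 16 gave 4, no filter on dim probe sets 0 and no intensity trend 0. Without 1 pool the count was 0 to 1. Quantile normalization and a filter at 60% each kept the 2. The log2 change stayed between 0.81 and 1.15 for Gpd1 and between 0.83 and 1.03 for Arc. The comparison of structures gave 0 calls with the block and without it. Among 136 probe sets and 2001 values 4 changed sign, all without 1 pool: Cirbp ranged from -0.241 to 0.0763 (0.0217 without the deprived pool of set 2), Hbb from -0.477 to 0.0254 and Calml4 from -0.0863 to 1.75. List medians moved by more than the spread between sets in 123 of 656 values. Medians kept their sign under every alternative for the glucocorticoid-responsive (0.14 to 0.28), immediate early (0.13 to 0.17), effector (0.07 to 0.18) and heat shock lists (0.04 to 0.14), among others, but not for the clock, cold-inducible and most marker lists. Without the deprived pool of set 1, the median of the corticosteroid receptor and stress peptide list (0.22) was above that of the glucocorticoid-responsive list (0.14). Detection calls were not used here, so how far the dim probe sets stood above background was not measured.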

Other observations

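Some genes that belong to none of the lists had similar log2 changes in both sets, without passing the test. Alb, the plasma protein albumin, had signals of 107, 104 and 104 on deprived arrays against 65.1, 77.8 and 72.4 on control arrays. The groups did not overlap, and its 2 probe sets had log2 changes of 0.55 and 0.42. The 5 red blood cell transcripts measured were all below control, with Hbb at -0.23 and summed signals of 2285 and 2131 in deprived against 2762 and 2253 in control pools. Their median change of -0.09 became 0.03 without the control pool of set 1, and what part blood in the tissue has in the Alb values was not tested. Myh1, a myosin heavy chain of skeletal muscle, had signals of 827, 1041 and 856 in deprived against 700, 667 and 644 in control arrays, and 4 of its 5 probe sets had log2 changes between 0.36 and 0.55 while the brightest had 0.01.

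Egfr, the receptor of epidermal growth factor, had a log2 change of 0.87 on 1 probe set (0.74 in set 1 and 0.99 in set 2) and 0.21 on the other. Slc5a3, a transporter of the osmolyte inositol, had signals of 241, 218 and 178 in deprived against 178, 149 and 94.7 in control arrays, a log2 change of 0.70, and Pex11a, which acts in peroxisome division, had 0.67. Both were named after their values were seen, and neither passed.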
